A study of Mus musculus with 4 samples.

Results

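E2A binds DNA far from gene starts as well as close to them, and the strongest of the far sites in CD4+ CD8+ (DP) thymocytes that had no counterpart in iNKT thymocytes are described here. They were taken from 2 deposited lists of E2A ChIP-Seq peaks, in which DNA crosslinked to E2A was precipitated with an antibody and sequenced. A DP peak was included when its score was 1000 or more, when its midpoint lay more than 1 kb and at most 100 kb from the nearest start of a protein-coding gene in the mm9 annotation, and when no iNKT peak overlapped it by at least 1 bp. In all, 890 of the 17532 DP peaks met these conditions, which is 5.08% of that list. They are called DP-only strong distal peaks below, and the 417 peaks of the same score and distance that did overlap an iNKT peak are called shared strong distal peaks. The score is the authors' value from MACS, the negative log10 of a p-value multiplied by 10, and no list held a score under 50, which is a p-value of 1e-05. The peaks were chosen by score, distance and iNKT overlap, so those values are given only as a description.

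Cells of both types came from the thymus of L-DKO mice aged 3 to 5 weeks, which are Id2 f/f Id3 f/f LckCre+ and lose Id2 and Id3 in T lineage cells, where the Lck promoter drives Cre. DP cells were sorted as CD1dTet- CD4+ CD8+ and iNKT cells as CD1dTet+ TCRβ+, with material pooled from several mice. Each cell type had 1 E2A library and 1 input library, both groups carried the Id2 and Id3 deletion, and a wild-type library is not analysed here. There is therefore no replicate error and no test between cell types. Each interval below is a 95% interval for the counting error of peaks or genes only, and peaks of 1 library are not replicates. No read counts enter these intervals, and PCR reads without molecular identifiers are not independent molecules. The lists hold no read counts, so library depth is unknown, and a site missing from the shorter iNKT list of 1516 peaks was not called there, which does not show that it was unbound. Less binding per cell and binding in fewer of the pooled cells cannot be told apart. Expression was not analysed here, so the sorted cell types could not be checked against marker genes.

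E2A is an E protein, a basic helix-loop-helix factor that binds E-box sequences as a dimer and directs many steps of T cell development. Id2 and Id3 dimerize with E proteins and keep them off DNA. DP thymocytes rearrange the TCR alpha locus and give rise to iNKT cells when CD1d presents lipids to their TCR, and enhancers far from gene starts carry much of the regulation that separates thymocyte stages.

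The sequences below show peaks with an E-box close to the midpoint, and they are not typical, since 38.2% of the 890 held neither CAGGTG nor CAGCTG in 200 bp at the midpoint. Of the 890 peaks, 75 lay nearest to the start of a gene in 13 lists of T cell, control and other genes, and 19 of these had a CAGGTG or CAGCTG E-box within 50 bp of the peak midpoint. The first set is the 7 of those 19 whose 120 bases around the E-box also held the Ets core AGGAAG, whose frequency differed between DP-only and shared peaks in 200 bp at the midpoint. All are from the plus strand of mm9, and capitals mark E-boxes (CAGGTG, its reverse complement CACCTG, and CAGCTG), the Ets core on either strand and the Runx core ACCACA on either strand.
Ebf1, chr11:44391579-44391698: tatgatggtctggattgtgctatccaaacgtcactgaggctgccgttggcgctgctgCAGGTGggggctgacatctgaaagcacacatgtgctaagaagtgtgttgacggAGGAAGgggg
Ccnd3, chr17:47679434-47679553: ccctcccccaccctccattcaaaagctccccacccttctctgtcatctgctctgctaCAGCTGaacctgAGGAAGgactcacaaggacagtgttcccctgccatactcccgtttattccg
Bcl2l1, chr2:152620138-152620257: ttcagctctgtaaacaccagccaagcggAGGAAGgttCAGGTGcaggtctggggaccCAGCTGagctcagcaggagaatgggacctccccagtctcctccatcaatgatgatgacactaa
Lef1, chr3:130757692-130757811: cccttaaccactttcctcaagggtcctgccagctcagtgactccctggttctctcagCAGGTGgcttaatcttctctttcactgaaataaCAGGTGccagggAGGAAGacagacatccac
E2f1, chr2:154402574-154402693: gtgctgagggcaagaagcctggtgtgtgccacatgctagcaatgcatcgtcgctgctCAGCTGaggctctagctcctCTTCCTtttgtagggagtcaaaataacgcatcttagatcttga
Ets1, chr9:32513750-32513869: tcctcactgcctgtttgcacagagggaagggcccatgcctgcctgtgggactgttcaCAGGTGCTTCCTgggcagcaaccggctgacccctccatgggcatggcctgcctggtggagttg
Ptprc, chr1:140051001-140051120: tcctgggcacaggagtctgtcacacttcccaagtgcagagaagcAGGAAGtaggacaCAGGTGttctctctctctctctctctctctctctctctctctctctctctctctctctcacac
At Ets1 the E-box and the Ets core were adjacent, with no base between CAGGTG and CTTCCT, and at Bcl2l1 the Ets core lay 3 bases before the first E-box. The second set shows midpoints without an Ets core, chosen for the gene at which they lie: Id2, one of the deleted E protein inhibitors, Notch3, a receptor of the Notch pathway, and Bcl11b, a zinc finger factor needed for T lineage commitment. At Id2 the midpoint was also chosen for its number of E-boxes. Another Id2 midpoint, 3.04 kb downstream of the start with 2 E-boxes in its 120 bases, was left out.
Id2, chr12:25863466-25863585: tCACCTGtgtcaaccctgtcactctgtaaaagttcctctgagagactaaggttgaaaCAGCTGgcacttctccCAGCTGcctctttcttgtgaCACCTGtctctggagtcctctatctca
Notch3, chr17:32301300-32301419: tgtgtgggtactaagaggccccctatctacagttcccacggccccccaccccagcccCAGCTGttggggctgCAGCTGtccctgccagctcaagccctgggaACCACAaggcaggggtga
Bcl11b, chr12:109203144-109203263: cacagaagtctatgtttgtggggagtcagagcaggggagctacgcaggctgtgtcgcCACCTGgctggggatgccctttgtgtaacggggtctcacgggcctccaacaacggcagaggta
The Id2 sequence held 4 E-boxes in 120 bases, the Notch3 sequence held 2 with a Runx core, and the Bcl11b sequence held 1. A match to these letters describes the sequence and does not show which protein was bound.

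Most strong distal DP peaks had no iNKT counterpart, but the share was lower than among weaker peaks. Of 1307 strong distal DP peaks, 890 had none, or 68.1% (65.5 to 70.6), whereas over all DP peaks the share was 94.0%. Among 11440 distal DP peaks under the minimum score, 96.6% had none. The share was lower at higher scores, from 82.5% at scores of 1000 to under 1500 (79.0 to 85.5) to 58.0% at 2000 to under 3100 (52.1 to 63.7). A score of exactly 3100 was held by 210 strong distal peaks, which have no order among themselves, and 40.5% of them had no iNKT peak (34.1 to 47.2). The distal DP peaks at exactly 3100 thus still held 85 that were not called in iNKT cells. Scores above 3100 were held by 23 strong distal peaks, of which 9 had no iNKT peak (39.1%, 22.2 to 59.2). The share varied over a narrower range with distance from the gene start. The share without an iNKT peak was 67.0% within 1 kb of a start (57.3 to 75.4, 100 peaks) and 68.6% beyond 100 kb (62.7 to 73.9, 261 peaks). Within the distal class it was 74.0% at 1 to 5 kb (67.0 to 80.0), 65.0% at 5 to 20 kb (60.2 to 69.4), 64.2% at 20 to 50 kb (59.6 to 68.4) and 75.6% at 50 to 100 kb (70.2 to 80.4).

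**Figure D1:**
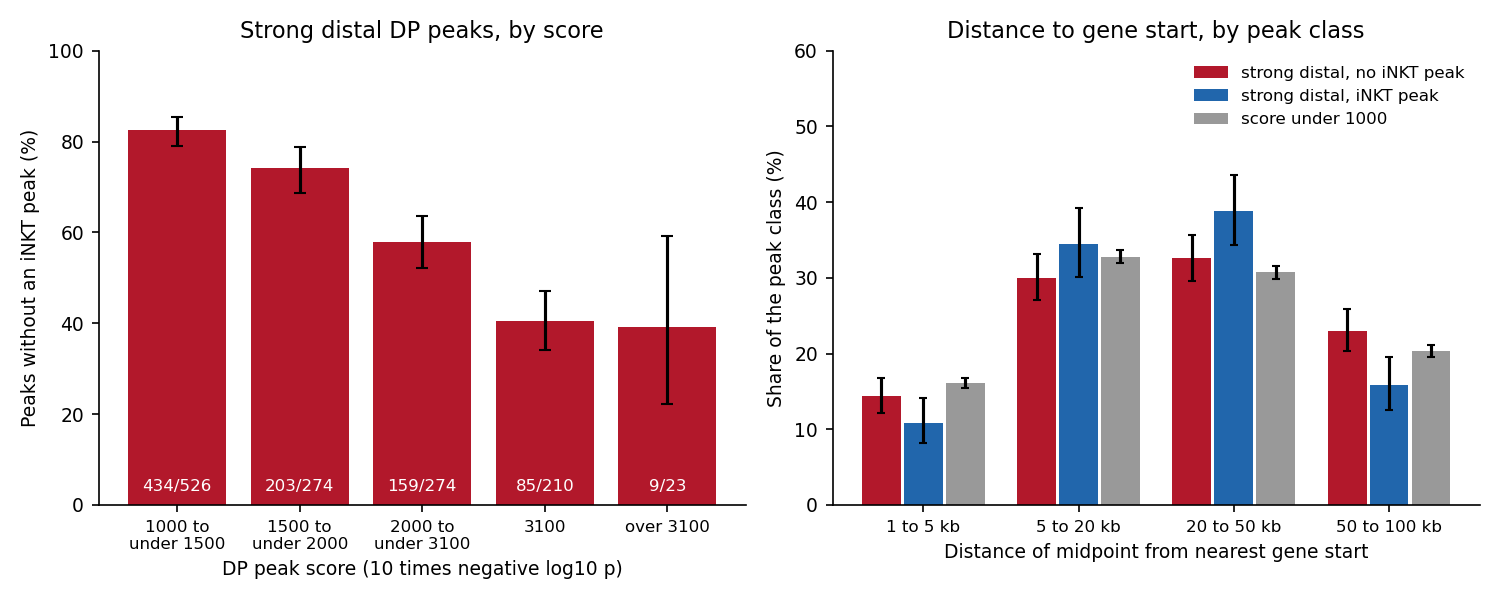
Left, share of strong distal DP peaks without an overlapping iNKT peak (percent) by DP score class, with the number of such peaks of all in the class inside each bar. Right, share of each peak class (percent) by distance of the midpoint from the nearest gene start, for DP-only strong distal peaks (red), shared strong distal peaks (blue) and distal peaks with scores under 1000 (gray). Error bars are 95% Wilson intervals. The share without an iNKT peak is 82.5% in the lowest score class and 39.1% in the highest, and 23.0% of the red class but 15.8% of the blue class lies at 50 to 100 kb.

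The DP-only strong distal peaks ran from a score of 1000 to 3225, with a median of 1524 and quartiles of 1192 and 2143. The shared ones had a median of 2343. Their width was 1868 bp at the median (quartiles 1493 and 2368), against 2002 bp for shared and 936 bp for weaker distal peaks. At the edges of the rule, the lowest score inside was 1000.25, for a peak at Cdkn2aipnl (chr11:51748736-51750522), and the highest just outside was 999.17, at 6330406I15Rik. A peak 1001 bp from the start of Prrt1 was inside and one 951 bp from Slc43a1 was outside. A peak 99871 bp from Srgap2 was inside and one 100275 bp from Acoxl was outside. Midpoints lay 23.4 kb from the nearest start at the median (quartiles 9.23 and 48.2), and 59.0% of them were downstream of it. Introns held 433 of the peaks (48.7%, 45.4 to 51.9), exons 62 and sequence outside genes 395 (44.4%, 41.1 to 47.7). For shared strong distal peaks the intron share was 51.1% (46.3 to 55.8), an interval that overlaps the first. At 50 to 100 kb lay 23.0% of DP-only peaks (20.4 to 25.9) and 15.8% of shared peaks (12.6 to 19.6), a description only, since distance was part of the rule. Assignment by the nearest start is a matter of position alone: 358 peaks (40.2%) lay inside the gene whose start was nearest, while 137 (15.4%) lay inside another protein-coding gene only.

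The nearest iNKT peak was 179 kb away at the median (quartiles 53.9 and 555), edge to edge, and 218 kb away for weaker distal DP peaks, the overlapping ones included. Of the 890 DP-only strong distal peaks, 4 had one within 1 kb. The nearest of all, at 0.464 kb, was that of a peak near 2210010C17Rik. Within 100 kb, 327 had an iNKT peak (36.7%, 33.6 to 40.0), compared with 32.4% of weaker distal DP peaks without an iNKT overlap (31.5 to 33.2). Other DP peaks lay closer. A DP-only strong distal peak had a median of 5 other DP peaks within 50 kb, the same as a shared one, and 307 of the 890 (34.5%) had another DP-only strong distal peak in that range. They were spread over chromosomes 1 to 19 and X, with 93 on chromosome 11, 84 on chromosome 2 and 8 on X. Relative to all DP peaks of a chromosome, they ranged from 2.36 in 100 on chromosome 18 to 6.58 in 100 on chromosome 7.

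The peaks were nearest to the starts of 748 of 22350 protein-coding genes (3.35%), and most of these genes had no iNKT peak around them. An iNKT peak had its midpoint within 100 kb of the start of 246 of the 748 (32.9%, 29.6 to 36.3). The same was true of 14.5% of all protein-coding genes, and of 21.5% of the 4463 genes that had only weaker distal DP peaks (20.3 to 22.7). These 2 groups are not alike by construction. The 4463 leave out every gene with a shared strong distal peak, whereas 84 of the 748 have one, and such a peak brings an iNKT peak with it. The 32.9% and 21.5% therefore do not compare the DP-only peaks alone. Genes with a DP-only strong distal peak had a median of 4 DP peaks assigned to them and those with only weaker ones had 2, so the groups also differ in how much binding surrounds them, and the part of this in the share was not tested. Of 636 genes with 1 such peak 31.1% kept an iNKT peak (27.7 to 34.8), and of 112 genes with more 42.9% did (34.1 to 52.1). An iNKT peak with its midpoint within 1 kb of the start was rare, at 8 of the 748 genes (1.07%), against 0.398% of all genes. The kept iNKT peaks numbered 279, of which 242 overlapped another DP peak (86.7%, 82.3 to 90.2), a larger share than the 69.3% of all iNKT peaks (66.9 to 71.5). By the rule these lie at other sites than the DP-only peaks, and genes with such a peak also had more DP peaks to overlap. Their median score was 87.7, near the 79.6 of the whole iNKT list.

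A DP-only and a shared strong distal peak were assigned to the same gene at 84 genes (11.2% of the 748). The nearest such neighbors were 13.4 kb apart at the median (quartiles 6.58 and 28.5) and at least 1.85 kb apart. The shared peak had the higher DP score at 60 of these genes, the DP-only peak at 15, and 9 had equal scores. Cdca7, a Notch target with a role in DNA methylation maintenance, was among the 15, with scores of 3214 for the DP-only and 3035 for the shared peak. At Ccnd3, which encodes the cyclin D3 needed for thymocyte proliferation, the highest peak of each kind scored 3100, and the nearest of them lay 9.29 kb apart.

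The peaks were counted at the genes of 13 lists, which were chosen with earlier results of these data known and of which 2 hold genes of other lineages or tissues. Of 215 annotated genes in the lists, 51 had a DP-only strong distal peak (23.7%, against 3.35% of all genes), and 25 of the 51 kept an iNKT peak within 100 kb, compared with 32.9% of all genes with such a peak and 14.5% of all protein-coding genes. In the same lists 147 genes had a distal DP peak of any score and 23 a shared strong distal peak, so E2A peaks of the other classes lay at them too. The shares of all protein-coding genes with these other classes are not given here. The 23.7% can therefore not be read as particular to the DP-only class. The highest share was among thymocyte surface molecules, with 8 of 19 genes. It was followed by V(D)J recombination and TCR complex genes with 5 of 13, cytokine receptor and JAK-STAT genes with 8 of 22, and T lineage transcription factors with 11 of 34. None of 16 iNKT and NK effector genes had such a peak, although 7 of the 16 had an iNKT peak within 100 kb. At the 3.35% of all genes a list of this size would often hold none, so this count says nothing about effector genes in particular. Among lists for other tissues, 2 of 18 genes of other blood lineages and 1 of 18 genes of non-blood tissues had one. These counts rest on small lists and were not tested.

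**Figure D2:**
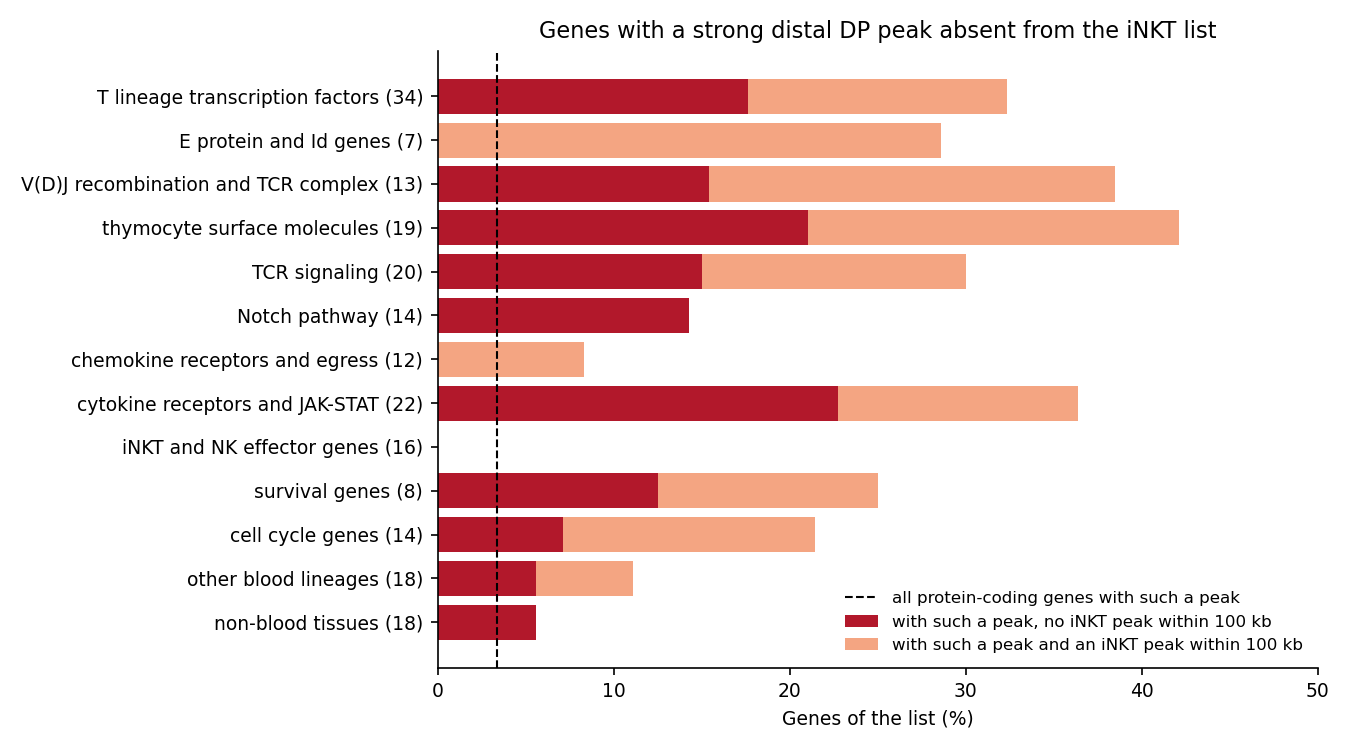
Share of the genes of each list (percent, number of annotated genes in parentheses) with a DP-only strong distal peak, divided into genes without (dark red) and with (light) an iNKT peak within 100 kb of the start. The dashed line is the 3.35% of all protein-coding genes with such a peak, and 8 of 19 thymocyte surface genes have one.

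T lineage transcription factors held 21 of the peaks at 11 genes, and 5 of the 11 kept an iNKT peak within 100 kb (32.9% over all genes with such a peak). Lef1, an HMG box factor that acts with Tcf7 in early T cell development, had 3 DP-only peaks, all upstream, with scores of 2849 at 55.6 kb, 1692 at 83.9 kb and 1146 at 96.3 kb from the start. Ets1, the founding Ets factor, had 3 with scores of 1798, 1589 and 1045, of which the second was intronic at 70.0 kb downstream and is the one whose sequence has adjacent E-box and Ets letters. Runx1, which is needed to silence Cd4 and to make DP cells, had 2 in introns with scores of 1790 and 1679. None of these 3 genes had an iNKT peak within 100 kb, and neither did Fli1 (1059), Satb1 (1115) or Nr4a1 (2443), a factor induced by TCR signals. With no limit on distance, however, the start of Lef1 was the nearest to 1 iNKT peak, that of Ets1 to 3 and that of Runx1 to 2. The other 5 genes kept one within 100 kb. Tcf7, the partner of Lef1, had DP-only peaks with scores of 2079 in an intron, 1390 at 9.70 kb upstream and 1100 at 35.3 kb upstream. Its 1 iNKT peak (score 432) lay between the last 2, 31.1 kb upstream, on a DP peak with a score of 3100. Bcl11b had 3 peaks in introns, with scores of 2939, 1611 and 1274, and kept an iNKT peak (score 101) on the other side of its start, 66.2 kb upstream. Sox4, an HMG box factor, had a DP-only peak with a score of 3100 at 21.4 kb upstream and 3 iNKT peaks, with scores of 186, 110 and 52.7, to either side of it. Myb, which supports DP survival, and Bach2, a repressor of effector programs, had highest DP-only scores of 1860 and 1483 and kept 2 and 3 iNKT peaks. At these 5 genes a strong DP site without an iNKT peak lay beside other sites that the iNKT list did hold.

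**Figure D3:**
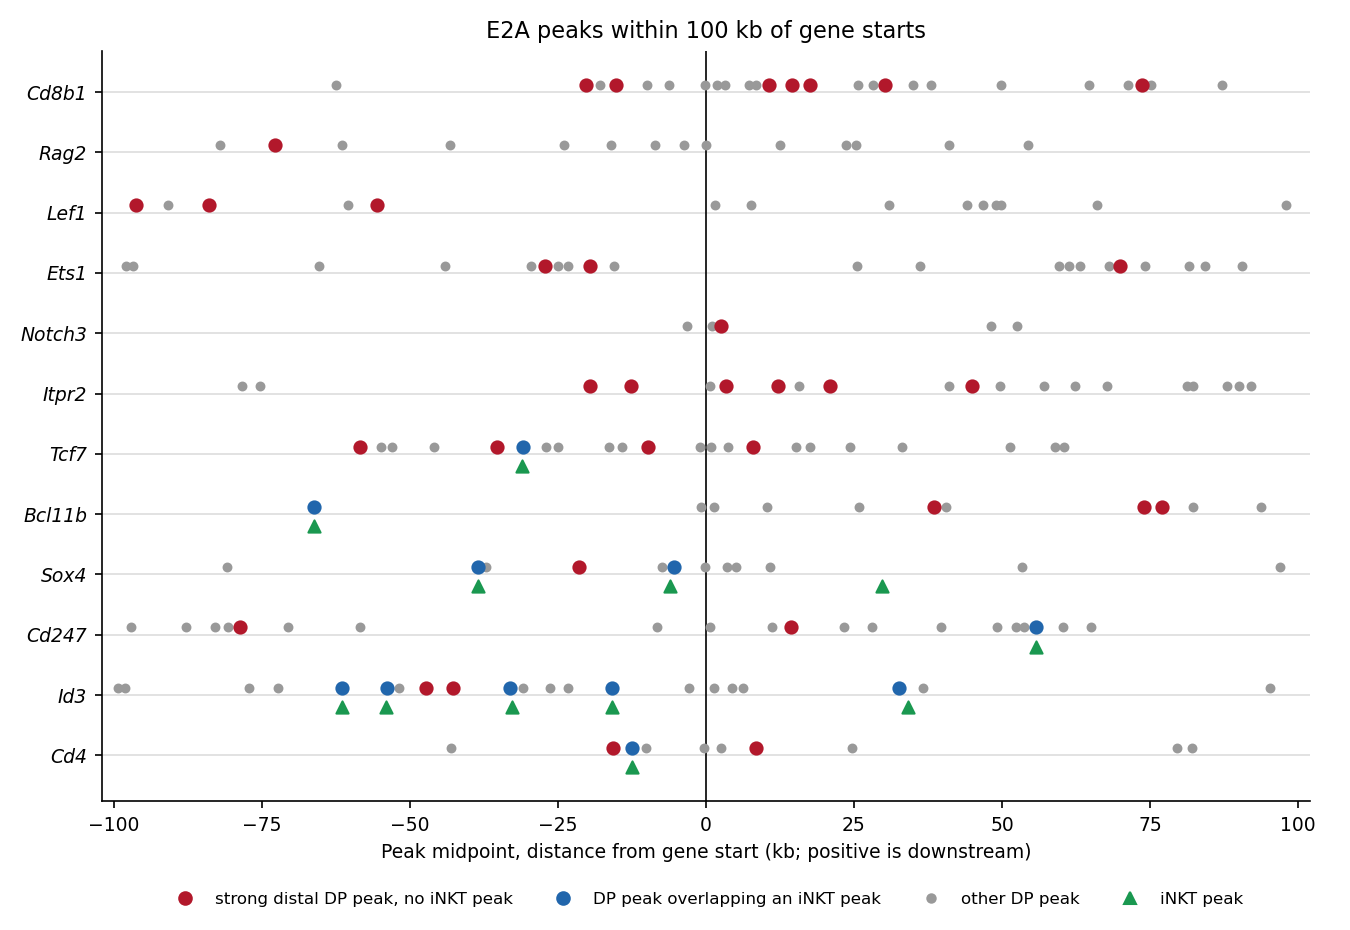
Midpoints of E2A peaks within 100 kb of 12 gene starts, by distance from the start (kb, positive is downstream). Red points are DP-only strong distal peaks, also those assigned to a neighboring gene, blue points are DP peaks that overlap an iNKT peak, gray points are other DP peaks and green triangles are iNKT peaks. The upper 6 genes (Cd8b1 to Itpr2) have no triangle, while Id3 has 5 and Sox4 has 3.

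The E protein and Id list had 2 of 7 genes with a DP-only strong distal peak, and both were the Id genes deleted in these mice. Id2 had a peak with a score of 3100 at 82.6 kb upstream, whose 4 E-boxes are printed above, and another with a score of 1129 at 3.04 kb downstream of the start. It kept 1 iNKT peak (score 118) at 93.7 kb upstream. Id3 had 1, with a score of 1314 at 42.7 kb upstream, between iNKT peaks at 54.0 and 32.7 kb upstream, and had 5 iNKT peaks in all.

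Of the coreceptor genes, the Cd8 locus held several neighboring strong sites without an iNKT peak. Around Cd8a and Cd8b1, which encode the CD8 coreceptor and share a set of enhancers, 7 DP-only strong distal peaks lay within 96.2 kb (chr6:71251218-71347467). Their scores were 3100, 1320, 1870, 1648, 1836, 1698 and 1750 in genome order. By the nearest start, the first pair belonged to Gm1070, the next 3 to Cd8b1 and the last pair to Cd8a. The region had 22 DP peaks and 0 iNKT peaks, and the iNKT peak nearest to any of the 7 was 475 kb away. CD8 is absent from most mouse iNKT cells. Cd4, the other coreceptor, had 1 with a score of 2406 in an intron 8.52 kb downstream of its start and kept an iNKT peak (score 159) at 12.4 kb upstream, nearest to Lag3. Ptprc, the phosphatase CD45, had 2 with scores of 2183 and 1562, and Cd6, a coreceptor of T cells, had 1 with a score of 1910, without an iNKT peak at either gene. Thy1, Cd2 and Slamf6, T cell surface proteins, had highest scores of 1470, 1245 and 1388 and kept 2, 1 and 1 iNKT peaks. At Slamf6, a SLAM receptor used in iNKT selection, the DP-only peak lay 1.78 kb downstream of the start and the iNKT peak (score 55.9) 1.44 kb upstream.

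Among recombination genes, Rag2 had a peak with a score of 3100 at 72.8 kb upstream (chr2:101389966-101394198), and no iNKT peak lay within 100 kb of its start. RAG2 forms the recombinase with RAG1, and its upstream region is known to hold regulatory elements used in DP thymocytes. Dntt, the enzyme that adds bases at V(D)J junctions, had 2 with scores of 2325 and 1945, also without an iNKT peak. Dclre1c, which opens hairpins during recombination, had 1 with a score of 1025 and kept an iNKT peak (score 52.2) over its start. Cd247, the zeta chain of the TCR complex, had a score of 3100 at 14.4 kb downstream in an intron, and kept an iNKT peak (score 175) at 55.8 kb downstream, on another DP peak. Cd3e, a CD3 chain, had 1 with a score of 1367 and kept 3 iNKT peaks.

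TCR signaling genes had such peaks at 6 of 20 genes. Lcp2, the adaptor SLP-76, had a score of 3100 in an intron at 31.4 kb downstream. Prkcq, a protein kinase C of the TCR pathway, and Dgka, a diacylglycerol kinase that dampens it, had scores of 1162 and 1600. These 3 had no iNKT peak within 100 kb, although the start of Prkcq was the nearest to 1 iNKT peak farther away. Rasgrp1, a Ras activator, had 2 with scores of 2374 and 2323 and kept an iNKT peak (score 244), Themis, which sets TCR signal strength in DP cells, had 2 with scores of 1962 and 1280 and kept 1 (score 75.2), and Grap2 had 1 with a score of 1575 and kept 1 (score 191). In the Notch pathway 2 of 14 genes qualified, both of them receptors with an intronic peak close to the start: Notch1 with a score of 2025 at 3.11 kb and Notch3 with a score of 3100 at 2.48 kb, and neither kept an iNKT peak. Ccr7, a receptor for migration to the thymic medulla, was the 1 gene of 12 in the chemokine receptor and egress list (score 1458, with 2 iNKT peaks kept).

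Cytokine receptor and JAK-STAT genes had 10 of the peaks at 8 of 22 genes, and 3 of the 8 kept an iNKT peak within 100 kb, near the 32.9% over all genes with such a peak. Il21r had 2, with scores of 3100 and 1031, Il2ra had 1 with a score of 2224, and Ifngr1 had 1 with a score of 1374. These encode receptors of interleukin 21, interleukin 2 and interferon gamma. Socs1, an inhibitor of JAK signaling, had 2 with a highest score of 1690, and its start was the nearest to 1 iNKT peak beyond 100 kb. These 4 genes had no iNKT peak within 100 kb. Il4ra, Jak1 and Stat5a, with scores of 1134, 1345 and 1159, kept 1, 2 and 1 iNKT peaks. Of survival genes, Bcl2l1, which encodes the Bcl-xL that keeps DP thymocytes alive, had 2 intronic peaks that both scored 3100 and no iNKT peak, while Bid, a death agonist, had 1 (1847) and kept 1. The cell cycle genes were Ccnd3, with 2 peaks (3100 and 1854), E2f1 (1891) and Cdkn1a (1041), of which Ccnd3 and Cdkn1a each kept 1 iNKT peak. The 3 genes of other lineages were Ebf1, a B lineage factor, with a score of 3127 at 39.2 kb upstream, Itgam, a myeloid integrin, with 2025 in an intron and 3 iNKT peaks kept, and Ins2, insulin, with 1244 at 48.4 kb upstream.

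Ranked by number of peaks, genes outside the lists led. Itpr2, an inositol trisphosphate receptor that releases calcium, had 6, which was the highest number at any gene, with scores of 1005, 1050, 1545, 1188, 2598 and 1305 between 45.0 kb downstream and 19.6 kb upstream. No iNKT peak lay within 100 kb of its start. Prex1, an exchange factor for Rac, had 4 in introns, with scores of 1490, 1777, 1029 and 1255, and no iNKT peak either. Mef2a, a MADS box factor, Klf13, a Krüppel-like factor, and Gse1, a nuclear protein, also had 4 each, with highest scores of 2764, 1990 and 2777, and each kept 2 iNKT peaks. Another 18 genes had 3 each, Bcl11b, Lef1, Cd8b1, Tcf7 and Ets1 among them. The 5 of these with the highest summed scores were Asb1, Ldlrad3, Mad1l1, Pitpnm2 and Lclat1, and of these 5 Pitpnm2 kept an iNKT peak within 100 kb, while Ldlrad3, Mad1l1 and Lclat1 each had the nearest start to 1 iNKT peak farther away. The 5 highest scores were at Aes (3225), Cdca7 (3214), Smarca4 (3202), Zdhhc7 (3156) and Tnfsf11 (3151), although their order against the 85 peaks at exactly 3100 may not be one of binding. Aes, a short Groucho family corepressor, had its peak in an intron 1.36 kb from the start. Smarca4, the ATPase BRG1 of chromatin remodeling complexes, had its peak in an intron at 36.6 kb, and Tnfsf11, the cytokine RANKL, at 48.5 kb upstream. Of these 5 genes, Cdca7 had an iNKT peak within 100 kb of its start, with a score of 77.3.

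E-boxes were more frequent at these sites than beside them. CAGGTG was found on either strand in the 200 bp at the midpoint of 46.2% of DP-only strong distal peaks (42.9 to 49.5) and in 16.0% of windows of the same length 2 kb to either side (14.3 to 17.7), and over all DP peaks the share was 43.9%. CAGCTG was found at 33.6% (30.6 to 36.8) and in 9.44% of flanks (8.17 to 10.9), and CAGATG, an E-box searched after the data were seen, at 28.0% and 15.6%. Either CAGGTG or CAGCTG was found at 61.8% (58.6 to 64.9), and 28.9% had 2 or more sites (26.0 to 31.9), against 3.54% of flanks. In the whole peak, 888 of 890 held one of these E-boxes, and the nearest was 68.0 bp from the midpoint at the median. Peaks were 1868 bp wide at the median, 24.0% of flanks of 200 bp held one, and no flanks of peak length were searched. The count for whole peaks thus has no comparison. Among 533 CAGGTG sites in the windows, the bases to either side were most often G and C (GCAGGTGC, 12.6%), then G and T (GCAGGTGT, 12.0%) and C and T (CCAGGTGT, 10.9%). The intervals of these 3 overlap, so their order is not settled. In flanks GCAGGTGG led with 15.5% and GCAGGTGC was at 4.73%, while in shared peaks ACAGGTGT and GCAGGTGT led with 12.3% each. Shared strong distal peaks had CAGGTG at 50.6% of midpoints (45.8 to 55.4) and CAGCTG at 35.7% (31.3 to 40.4). The difference in CAGGTG, DP-only minus shared, was -4.4 percentage points, and its interval of -10.2 to 1.4 includes 0. Among scores of 1500 to under 2000 it was -18.4 (-30.4 to -5.0), and in the classes below and above the intervals include 0. In a window of 100 bp the differences were -5.3 for CAGGTG (-10.6 to -0.1) and -5.3 for CAGCTG (-10.1 to -0.7). Among weaker distal DP peaks CAGGTG was at 44.6% of midpoints without and 64.5% of those with an iNKT peak, a difference of -19.9 (-24.6 to -14.9), which was wider than among strong ones. Beyond 100 kb, strong peaks had a difference of 3.3 (-9.6 to 16.0). DP peaks without an iNKT counterpart thus had CAGGTG less often in the weaker class. In the strong distal class the interval in 200 bp included 0 over all scores and excluded it at scores of 1500 to under 2000.

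The Ets core AGGAAG was found on either strand at 35.7% of DP-only midpoints (32.6 to 38.9) and at 26.6% of shared midpoints (22.6 to 31.1), with 23.5% in the flanks of the former. Over all DP peaks it was at 36.6%, so the DP-only share was near that of the whole list and the shared peaks had the lower one. Ets factors such as ETS1 and FLI1 are abundant in thymocytes. The difference was 9.1 percentage points, with an interval for counting error of 3.7 to 14.2. It was 9.5 at scores of 1000 to under 1500 (-1.1 to 18.3), 11.7 at 1500 to under 2000 (-1.3 to 22.9) and 10.0 at 2000 or more (1.8 to 18.0). It was 8.5 for peaks within 20 kb of a start and 9.6 for those farther away, so it was of like size in each class of score and distance, while in a window of 100 bp it was 4.8 (0.3 to 8.9). The weaker distal DP peaks, which share neither score nor members with these, had the Ets core at 38.2% without and 27.2% with an iNKT peak, a difference of 11.0 (6.3 to 15.3). Strong peaks beyond 100 kb had a difference of 3.2, with an interval of -9.1 to 14.4. Differences of this kind were taken for 7 cores. For CAGATG, DP-only minus shared was 2.6 points (-2.7 to 7.5). At scores of 1000 to under 1500 it was 10.2 (0.0 to 18.3), and at 2000 or more it was -1.9 (-9.5 to 5.7). The Ets search was added after the data were seen, peaks of 1 library are not replicates, and its relation to binding in iNKT cells was not tested.

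The Tcf7/Lef1 core TCAAAG went the other way, at 15.2% of DP-only midpoints (13.0 to 17.7) and 21.8% of shared midpoints (18.1 to 26.0), a difference of -6.7 percentage points (-11.4 to -2.2). Over all DP peaks the share was 17.4%, and in weaker distal peaks 18.2%. In the flanks of DP-only peaks it was at 13.4% (11.9 to 15.1), so its level at the midpoint was near that of surrounding sequence. The difference was -12.2 at scores of 2000 or more (-18.7 to -5.6), and at 1000 to under 1500 and 1500 to under 2000 it was -2.3 and -2.0, with intervals that include 0. In a window of 100 bp it was -2.1 (-5.8 to 1.2), among weaker distal peaks -1.3 (-5.6 to 2.4) and among strong peaks beyond 100 kb -5.9 (-17.1 to 4.1). The Runx core ACCACA was at 22.5% of DP-only midpoints (19.9 to 25.3), 15.9% of their flanks and 25.9% of shared midpoints (21.9 to 30.3). The Gata3 core TTATCT was at 9.44% of DP-only midpoints (7.69 to 11.5) and 9.72% of flanks. For Runx and Gata3 the differences from shared peaks, -3.4 and -2.3 points, had intervals that include 0. In a window of 100 bp the Gata3 core was at 3.82% of DP-only and 6.95% of shared midpoints, a difference of -3.1 (-6.2 to -0.6). In 200 bp at scores of 1500 to under 2000 it was 4.6 (-3.5 to 10.1), and the Runx difference in 400 bp was 1.6 (-4.1 to 7.2), so the direction of neither held throughout. Mean GC content of the window was 50.5% in DP-only and 49.6% in shared peaks.

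**Figure D4:**
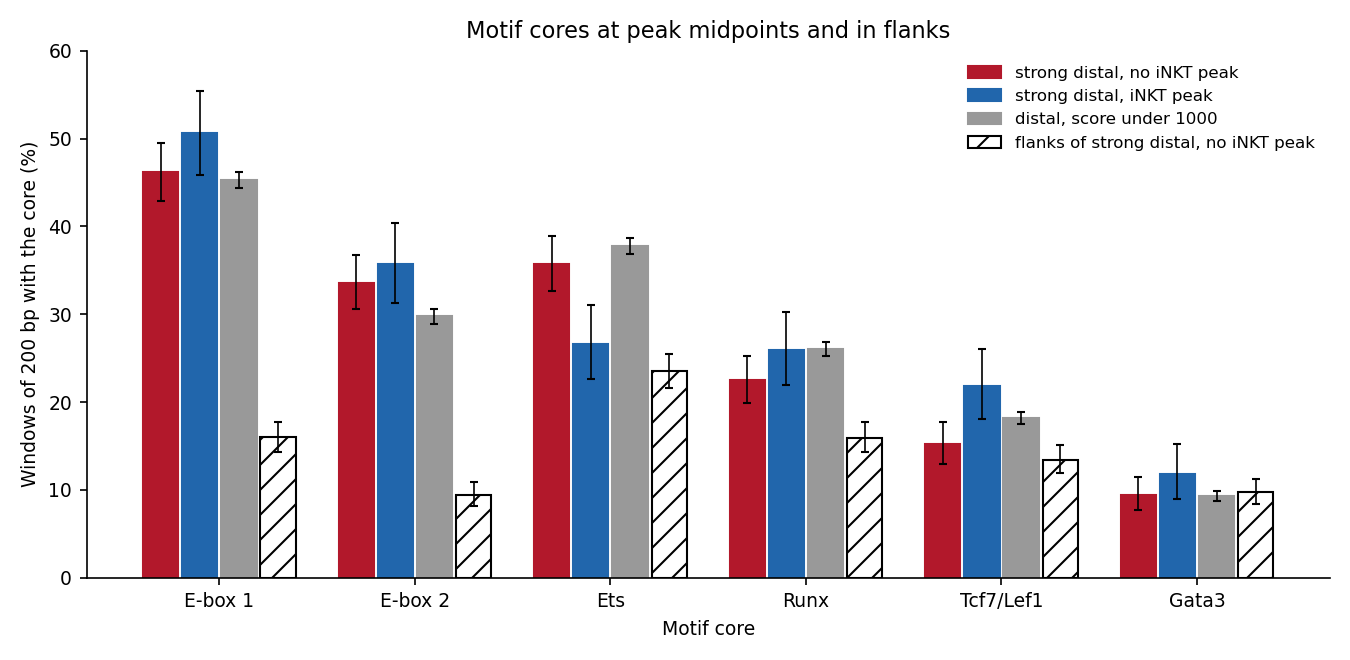
Share of 200 bp windows (percent) that hold each motif core on either strand, with 95% Wilson intervals, where E-box 1 is CAGGTG and E-box 2 is CAGCTG. Bars are midpoints of DP-only strong distal (red), shared strong distal (blue) and weaker distal DP peaks (gray), and flanks of DP-only peaks (hatched). The Ets core is at 35.7% of red and 26.6% of blue midpoints, and the Tcf7/Lef1 core at 15.2% and 21.8%.

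Along the peak, the E-boxes were concentrated at the midpoint in both classes. CAGGTG occurred 15.7 times per 100 DP-only peaks in the 50 bp just past the midpoint and 5.39 times in the last 50 bp of the 1000 bp examined to that side. CAGCTG occurred 11.1 and 2.25 times in the same bins. In shared peaks the same midpoint bin held 18.9 CAGGTG and 20.1 CAGCTG sites per 100 peaks. The Ets core occurred 13.1 times at the midpoint and 7.64 times at the far end in DP-only peaks, and 8.63 and 7.91 times in shared peaks.

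**Figure D5:**
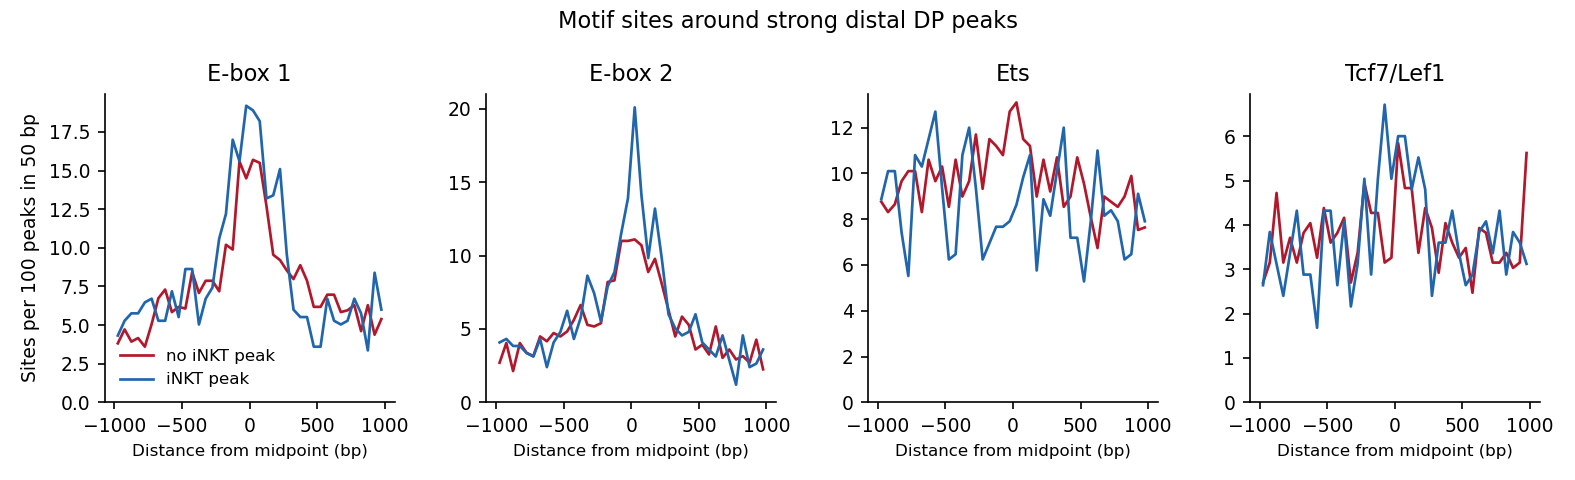
Sites per 100 peaks in bins of 50 bp (y axis, from 0) by distance from the peak midpoint (bp) for E-box 1 (CAGGTG), E-box 2 (CAGCTG), the Ets core and the Tcf7/Lef1 core, in DP-only (red) and shared (blue) strong distal peaks. No error is drawn, and single bins are noisy. The Ets core is at 13.1 sites per 100 red peaks and 8.63 per 100 blue peaks in the bin past the midpoint.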

How the data were processed

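E2A ChIP-Seq of L-DKO DP and iNKT thymocytes was analysed from 2 peak lists, 1 per cell type. Per the methods and processing notes, the authors used Bowtie 1.1.2 for alignment to mm9, with reads of 1 best position kept, and MACS 1.4.2 with its defaults for peaks. The deposited score of a peak is 10 times the negative log10 of its p-value, and grows with depth, so scores were read only within a list. Reads, inputs and coverage are not analysed here. Repeated sequence is under-represented, since reads with several positions were dropped.

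Overlap needed 1 bp. A peak's gene was the protein-coding gene whose start lay nearest to the midpoint in GENCODE M1 on NCBIM37, the assembly of mm9, and sequences were read from that assembly. A gene kept an iNKT peak when a midpoint lay within 100 kb of its start. Motif cores were looked up in both strands of the 200 bp around the midpoint and of flanks 2 kb away. Shares have Wilson intervals and differences Newcombe intervals, for counting error only, and no test was made with 1 library per cell type. Peaks, gene lists (217 genes, 215 matched to the annotation) and comparisons were chosen with earlier results of these data known. The CAGATG, Ets and Gata3 searches and the differences between peak classes were added after the data were seen. Named genes are the 10 with most peaks (ties by the highest summed score), the 5 highest scores, list genes with a peak, and the threshold edges. Another gene under this rule is counted in its list but not reported here. Genes with both a DP-only and a shared strong distal peak, and the printed sequences, were chosen after their values were seen. Alternatives varied the minimum score, the distance limits, the overlap, the iNKT score, the assignment and the motif window. All 6 functions were tested on simulated data and gave the known answers. The work used Python 3.11.15, numpy 2.4.6, pandas 2.3.3, scipy 1.17.1, matplotlib 3.10.9, pysam 0.24.0 and samtools 1.23.1.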

Additional observations from a re-analysis of the deposited data

How the results depend on the processing

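The peak lists, called against input, have no replicate and no read counts, so a missing iNKT peak cannot be told from one that was under the calling threshold. Alternatives gave 85 values of 13 results, of which 66 were planned and 19 were chosen after seeing the data. None of these reversed a direction, 51 differed by less than counting error or by under 1.5 times for a count, and 34 moved further. No paired analysis was possible because each cell type has 1 library and no replicate number.

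A minimum score of 500 gave 2071 peaks, 79.3% of strong distal peaks without an iNKT peak, and 1530 genes. A minimum of 2000 gave 253 peaks, 49.9% and 229 genes, with CAGGTG at 37.9%, CAGCTG at 28.5% and the Tcf7/Lef1 core at 11.5% of midpoints. With iNKT peaks of score 100 or more alone, 81.7% of strong distal peaks had no iNKT peak, 16.3% of genes kept one, and the nearest was 675 kb away at the median. The share of genes that kept an iNKT peak was 20.3% within 50 kb, 17.8% in the gene body with 30 kb upstream and 5 kb downstream, 20.7% by nearest start, and 16.0% with kept peaks of score 100 or more. The shares of genes that kept an iNKT peak are lower by construction with fewer iNKT peaks or a smaller range, and the cause of the changes with minimum DP score was not tested.

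Shares with a core rose with the length searched, as they must. CAGGTG was at 25.2% in 100 bp, 66.9% in 400 bp and 96.4% in the whole peak. The same values were 17.5%, 52.4% and 86.6% for CAGCTG, 12.0%, 40.4% and 85.2% for Runx, 8.43%, 28.3% and 74.0% for Tcf7/Lef1, and 19.7%, 56.5% and 94.7% for Ets. The Tcf7/Lef1 difference between DP-only and shared peaks was -2.1 points in 100 bp (-5.8 to 1.2), -2.0 at scores of 1500 to under 2000 and -12.2 at 2000 or more. The differences for the cores other than Ets and Tcf7/Lef1 were not among the 13 results, and each changed sign in some class or window. CAGGTG changed to 3.3 beyond 100 kb, CAGCTG to 3.6 at scores of 1000 to under 1500 and CAGATG to -1.9 at 2000 or more. Runx changed to 1.6 in 400 bp and Gata3 to 4.6 at 1500 to under 2000, and all of these intervals include 0. The cause of these differences was not tested.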
